A study of Mus musculus with 2 samples.

Results

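The genes described here carry branched-chain amino acids into the cell and start their breakdown. They are 10 symbols, Bcat1, Bcat2, Bckdha, Bckdhb, Dbt, Bckdk, Slc7a5, Slc3a2, Slc43a1 and Slc43a2, picked by name as aminotransferases, parts of the dehydrogenase complex and carriers. Each was found once among the 46095 entries of the count table. RNA was sequenced from mouse acute myeloid leukaemia cells that the labels call leukaemia-initiating, sorted from bone marrow for Mac1 and KIT. Both groups were of the C57BL/6 strain with a labelled age of 8 weeks, 1 library with the genotype label P2x1-KO (called P2X1-KO here) and 1 labelled wild type (WT). The titles and genotypes speak of a knockout, while the protocol names the groups P2X1-KD and P2X1-Scr, and the sources used here do not say whether animals were pooled or how the leukaemia was made. With 1 library per group no difference below has a replicate check, and no p-value was computed.

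Leucine, isoleucine and valine enter cells mainly through the system L carriers. LAT1, encoded by Slc7a5, works as an exchanger bound to the heavy chain 4F2hc, encoded by Slc3a2, whereas LAT3 and LAT4, encoded by Slc43a1 and Slc43a2, let the same amino acids pass without exchange. Inside the cell, BCAT1 in the cytosol or BCAT2 in mitochondria moves the amino group to 2-oxoglutarate, giving glutamate and a branched-chain ketoacid, and both reactions can run backwards. The branched-chain ketoacid dehydrogenase complex then commits the ketoacid to oxidation, unless its kinase BCKDK has switched it off by phosphorylation. BCAT1 is known for its part in the growth of myeloid leukaemia cells.

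The start regions of 3 members are shown: Bcat1 and Slc43a1 because they were the furthest lower in the library labelled P2X1-KO, and Slc43a2 because it is the paralog of Slc43a1 and was not lower. They are RefSeq sequences of build GRCm38.p6, whose coordinates equal those of mm10. Bcat1 is shown from chr6:145076158-145076407 on the minus strand and Slc43a2 from chr11:75531444-75531693 on the plus strand, each being the 250 bases before a RefSeq start. Of the Bcat1 stretch, the last 27 bases lie in a GENCODE exon, and none of the Slc43a2 stretch does. Slc43a1 is shown from chr2:84840247-84840276 on the plus strand, 30 bases inside the first exon of one GENCODE transcript and upstream of the RefSeq start. Capitals mark matches to the searched motifs.
Bcat1: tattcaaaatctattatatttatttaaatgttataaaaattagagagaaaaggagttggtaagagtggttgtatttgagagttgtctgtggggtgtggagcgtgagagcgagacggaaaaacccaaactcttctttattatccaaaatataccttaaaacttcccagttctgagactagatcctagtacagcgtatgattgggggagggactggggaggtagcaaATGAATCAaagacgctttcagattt
Slc43a1: agggtctccctcCACGTGgcagccgtggga
Slc43a2: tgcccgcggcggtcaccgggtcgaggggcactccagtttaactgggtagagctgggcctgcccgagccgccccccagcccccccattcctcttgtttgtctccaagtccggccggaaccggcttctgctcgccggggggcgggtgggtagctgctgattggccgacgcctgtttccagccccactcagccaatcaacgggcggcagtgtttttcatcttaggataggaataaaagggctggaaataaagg

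The motifs searched on both strands were CACGTG, the E-box read by MYC-type factors, TGATGCAA, an amino acid response element, and TGATTNAT, a PBX-type site. Promoter windows were found for 8 of the 10 members, and since 4 of them have a second RefSeq start there were 12 windows. A match stood in 2 of them. Slc43a1 held CACGTG, whose first base lies at position -64 from the start, and Bcat1 held a match to TGATTNAT on the other strand, with its first base at -25. This Bcat1 match lies in the 27 bases that fall in a GENCODE exon. The window of the second Bcat1 start held no match. Among 32536 different promoter windows of the same length, 6.04% held CACGTG, 0.762% held TGATGCAA and 2.83% held TGATTNAT. A match is a run of letters and says nothing about binding.

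The library labelled P2X1-KO held 9447894 counts over 16165 detected genes and the library labelled WT 14658620 counts over 19824. Values are given as CPM, counts scaled to a common library size after trimmed-mean (TMM) normalization. Intervals are exact 95% intervals and cover counting error only. P2rx1, the gene of the ATP-gated channel P2X1, had 45 counts in the library labelled P2X1-KO and 27 counts in the library labelled WT, a ratio of 2.93 (1.78 to 4.90). The targeted transcript thus went against the label, and since a gene's count does not tell its exons apart, all directions below are between 2 labelled libraries. The sort genes were present: Kit had 19.9 CPM in the library labelled P2X1-KO and 13.3 CPM in the library labelled WT, and Itgam, encoding the Mac1 alpha chain, had 504 CPM in the library labelled P2X1-KO and 307 CPM in the library labelled WT. Of Itgam's exon bases, 68.7% overlap the same-strand model Gm49368.

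Most markers of maturing myeloid cells were higher for the label P2X1-KO. Of 10 neutrophil markers, 10 were measured and 9 were higher by 2-fold or more for that label. The 10 summed to 7937 CPM in the library labelled P2X1-KO and 2576 CPM in the library labelled WT. The remaining neutrophil marker, Ly6g, went the other way, with a ratio of 0.580 (0.386 to 0.852). Ly6g had 36 counts in the library labelled P2X1-KO and 109 counts in the library labelled WT. Of 10 monocyte and macrophage markers, 9 were measured and all 9 of these were higher by 2-fold or more, with sums of 5252 CPM in the library labelled P2X1-KO and 356 CPM in the library labelled WT and Mrc1 at 0 in the library labelled P2X1-KO. For eosinophil, mast cell and basophil markers the sums were 226 CPM in the library labelled P2X1-KO and 40.3 CPM in the library labelled WT, and 3 of 4 measured were higher, with Fcer1a and Il5ra at 0 in both. The fourth, Mcpt8, was lower, at 23.0 CPM for the label P2X1-KO and 34.0 CPM for the label WT. Stromal markers summed to 254 CPM for the label P2X1-KO and 95.05 CPM for the label WT, with 4 of 5 measured higher, Dcn at 0 in both, Cxcl12 and Lepr at 0 in the library labelled P2X1-KO, and Sparc, Col3a1 and Col1a2 at 0 in the library labelled WT. The fifth, Pdgfrb, was lower, at 47.1 CPM for the label P2X1-KO and 93.1 CPM for the label WT, most of the latter sum. Sums for megakaryocyte markers were 21.4 CPM for the label P2X1-KO and 4.81 CPM for the label WT, with 1 of 2 measured higher and Pf4, Gp1ba and Ppbp at 0 in both. For B cell markers they were 49.6 CPM for the label P2X1-KO and 16.6 CPM for the label WT, with 1 of 2 measured higher and Ms4a1 and Pax5 at 0 in both. Erythroid markers were near 0, at 2.14 CPM for the label P2X1-KO and 0.898 CPM for the label WT, with none measured and Alas2 and Epor at 0 in both. T and NK cell markers were near 0 too, at 1.13 CPM for the label P2X1-KO and 2.12 CPM for the label WT, with the 1 measured lower and Cd3g, Ncr1 and Klrb1c at 0 in both. The part of these cell types in the differences below was not tested, and in bulk RNA fewer cells of a type and less RNA per cell cannot be told apart.

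Among the 10 genes, the carriers Slc43a1 and Slc7a5 and the cytosolic aminotransferase Bcat1 were lower in the library labelled P2X1-KO, while the other 7 lay within 2-fold. The filter, a mean level of 1 CPM or more, was passed by 9 members, of which 2, Slc43a1 and Slc7a5, were lower by 2-fold or more and 0 higher by as much. Among all 13382 features that reached this mean, 14.0% were lower and 15.5% higher by 2-fold or more. With 9 genes, 2 against a background of 14.0% is no result about the group as a whole. The whole interval lay beyond 2-fold for the same 2 genes, against 7.75% of all features lower and 10.2% higher by that rule. Bcat1 missed the mean by a little, at 0.834 CPM. On the scale of log2(CPM + 0.5), P2X1-KO minus WT, the median difference of the 9 genes was -0.48 and that of all 13382 features was -0.06. The 9 differences ranged from -3.23 to 0.73, with 5 below and 4 above 0. The middle 50% of all features ran from -0.59 to 0.56.

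**Figure D1:**
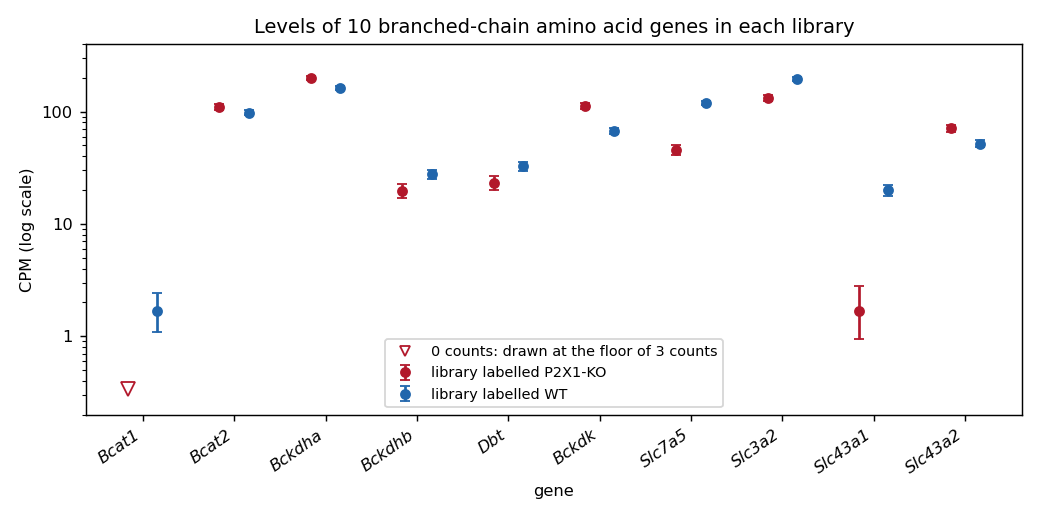
CPM (log axis) of the 10 genes in the library labelled P2X1-KO (red, left of each pair) and the library labelled WT (blue), 1 library each, with exact 95% Poisson intervals; the open triangle stands at the floor of 3 counts for Bcat1, which had 0 counts in the library labelled P2X1-KO. Slc43a1 (1.69 against 20.01 CPM) and Bcat1 (0 against 1.67 CPM) are the widest apart, and both are the lowest of the set in each library.

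Slc43a1 differed most of the measured members. It encodes LAT3 (chromosome 2, 84838850 to 84863594, plus strand, in GENCODE M21 on GRCm38). Slc43a1 had 15 counts in the library labelled P2X1-KO (1.69 CPM, counting interval 8.40 to 24.7 counts), and 312 counts in the library labelled WT (20.01 CPM, 278 to 349 counts). Its level for the label P2X1-KO was 11.8-fold lower (7.07 to 21.4), and 0.904% of the 13382 features had a lower log2 difference. The paralog Slc43a2 (chromosome 11, 75531694 to 75577575, plus strand), encoding LAT4, had 630 counts in the library labelled P2X1-KO (70.9 CPM), and 808 counts in the library labelled WT (51.8 CPM). Its ratio was 1.37 (1.23 to 1.52), so it was somewhat higher where Slc43a1 was low. An antisense gene, Gm45606, covers 9.18% of the exon bases of Slc43a2.

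The balance between LAT3 and LAT4 transcripts does not depend on how the libraries are scaled. Slc43a1 made up 4.015% of the pair per kilobase of exon in the library labelled P2X1-KO and 40.4% in the library labelled WT. By plain counts the shares were 2.33% (exact interval 1.31 to 3.81) in the library labelled P2X1-KO and 27.9% (25.2 to 30.6) in the library labelled WT. The ratio of Slc43a1 to Slc43a2 counts was thus lower by 16.2-fold for the label P2X1-KO (9.55 to 29.6).

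Slc7a5, the LAT1 gene (chromosome 8, 121881150 to 121907694, minus strand), was the second carrier gene past 2-fold. It had 407 counts in the library labelled P2X1-KO (45.8 CPM), and 1860 counts in the library labelled WT (119 CPM). Its level for the label P2X1-KO was 2.60-fold lower (2.34 to 2.91). Of all features, 7.26% had a lower log2 difference. Its partner Slc3a2 (chromosome 19, 8706882 to 8723369, minus strand), which encodes the heavy chain that brings several light chains to the membrane, had 1178 counts in the library labelled P2X1-KO (133 CPM), and 3035 counts in the library labelled WT (195 CPM). Slc3a2 was 1.47-fold lower (1.37 to 1.57), within 2-fold. Both chains of the LAT1 carrier were therefore lower, the light chain by more. There were 0.346 counts of Slc7a5 for each count of Slc3a2 in the library labelled P2X1-KO (0.308 to 0.387) and 0.613 in the library labelled WT (0.578 to 0.649), a 1.77-fold lower ratio (1.56 to 2.02).

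Summed over the 4 system L genes, the library labelled P2X1-KO had 251 CPM and the library labelled WT 386 CPM, 1.54-fold lower (1.46 to 1.61). The largest part was Slc3a2, the heavy chain gene, with 133 CPM in the library labelled P2X1-KO and 195 CPM in the library labelled WT. The sums of the other members had ratios above 1 with TMM scaling. The 2 aminotransferase genes summed to 110 CPM in the library labelled P2X1-KO and 99.3 CPM in the library labelled WT, a ratio of 1.11 (1.02 to 1.20), nearly all of it from Bcat2, whose direction depends on the scaling. The 3 dehydrogenase genes and the kinase gene summed to 354 CPM in the library labelled P2X1-KO and 289 CPM in the library labelled WT, a ratio of 1.22 (1.17 to 1.28), with Bckdha, whose reads are uncertain, as the largest part. Dld, the gene of the E3 subunit of the complex, is not a member and not in this sum, and was 1.86-fold lower. The carriers had the same order per exon length in both libraries, with different spacing. In CPM per kilobase of exon, the levels in the library labelled P2X1-KO were 37.6 for Slc3a2, 12.4 for Slc7a5, 7.06 for Slc43a2 and 0.295 for Slc43a1. In the library labelled WT they were 55.2 for Slc3a2, 32.2 for Slc7a5, 5.16 for Slc43a2 and 3.50 for Slc43a1. The intervals of neighbouring carriers in each order did not meet. Slc7a5 stood 1.75 times as high as Slc43a2 per kilobase in the library labelled P2X1-KO and 6.23 times as high in the library labelled WT.

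**Figure D2:**
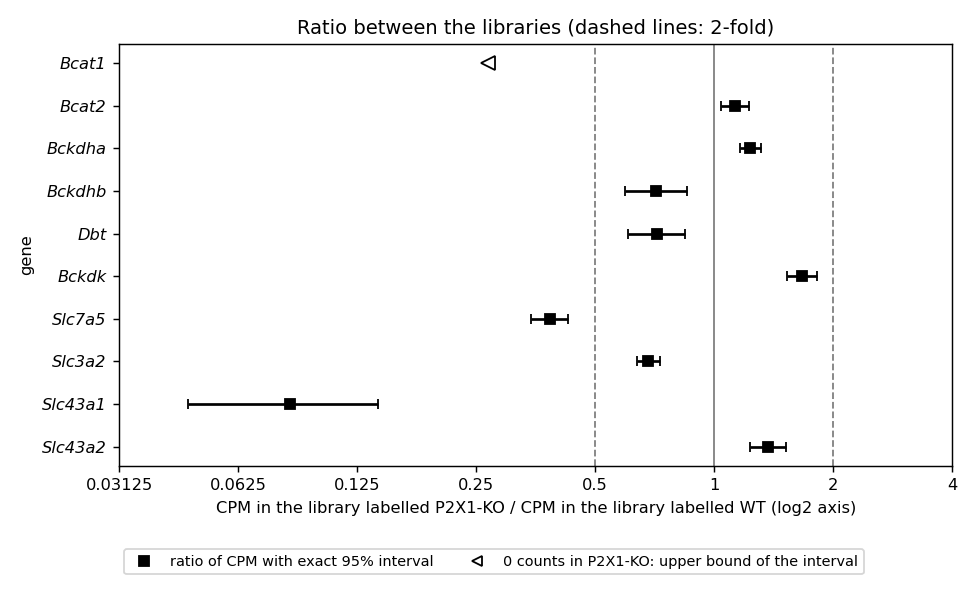
Ratio of CPM, library labelled P2X1-KO over library labelled WT (log2 axis), for the 10 genes with exact 95% intervals from counting alone; dashed lines mark 2-fold and the open triangle is the upper bound, 0.268, for Bcat1. Slc43a1 and Slc7a5 lie wholly below the lower dashed line; Bckdk reaches furthest to the right at 1.66, and Bcat2 and Bckdha lie just above 1 with TMM scaling, though Bcat2 falls below 1 with total counts and Bckdha after a length and GC correction.

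Of the aminotransferases, Bcat2 carried nearly all the counts in both libraries. Bcat1 (chromosome 6, 144993835 to 145076184, minus strand) had 0 counts in the library labelled P2X1-KO (upper interval bound 3.69) and 26 counts in the library labelled WT (16.98 to 38.1), or 1.67 CPM. Against the floor of 3 counts, which is 0.338 CPM in the library labelled P2X1-KO, it was 4.94-fold lower, and the exact interval gives 3.74-fold as its nearest bound. At the depth of the library labelled P2X1-KO, the level in the library labelled WT would correspond to 14.8 counts. Of the 1365 features with 20 to 40 counts in the library labelled WT, 191, or 14.0%, also had 0 counts in the library labelled P2X1-KO, and 455, or 33.3%, were lower by 2-fold or more. A count of 0 is thus not particular to Bcat1 among features of its level, and Bcat1 transcript was not detectable at this depth rather than shown to be absent.

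Bcat2, the mitochondrial enzyme (chromosome 7, 45570153 to 45589711, plus strand), had 977 counts in the library labelled P2X1-KO (110 CPM), and 1523 counts in the library labelled WT (97.7 CPM). The ratio was 1.13 (1.04 to 1.22) with TMM scaling, but the log2 difference was -0.0068 with total counts, so no direction is given. An antisense gene, 0610005C13Rik, covers 15.95% of its exon bases. Bcat1 made up 0 of 977 counts of the pair in the library labelled P2X1-KO. The exact interval allows a share of up to 0.377%, and the floor of 3 counts stands at 0.307%. In the library labelled WT it made up 1.68% (1.10 to 2.45) by counts and 0.709% per kilobase. The odds of a Bcat1 count within the pair were lower by at least 4.19-fold for the label P2X1-KO, by the nearest bound of the exact interval.

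The dehydrogenase genes lay within 2-fold, with the beta subunit and the core enzyme lower and the kinase higher in the library labelled P2X1-KO. Bckdhb, the E1 beta subunit gene (chromosome 9, 83925145 to 84124240, plus strand), had 175 counts in the library labelled P2X1-KO (19.7 CPM), and 431 counts in the library labelled WT (27.6 CPM), 1.40-fold lower (1.17 to 1.68). Dbt, the gene of the E2 core that carries the acyl group (chromosome 3, 116513070 to 116549981, plus strand), had 206 counts in the library labelled P2X1-KO (23.2 CPM), and 506 counts in the library labelled WT (32.5 CPM), also 1.40-fold lower (1.19 to 1.65). The proportion of these 2 genes did not differ beyond counting error, with 0.850 counts of Bckdhb per count of Dbt in the library labelled P2X1-KO (0.690 to 1.04) and 0.852 in the library labelled WT (0.747 to 0.970). The ratio between the proportions was 0.997, with an interval of 0.779 to 1.27. This pair and the kinase pairs below were set beside each other after their values were seen.

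Bckdk, the kinase that inactivates the complex (chromosome 7, 127904082 to 127910221, plus strand), was the highest member by ratio. It had 990 counts in the library labelled P2X1-KO (111 CPM), and 1044 counts in the library labelled WT (67.0 CPM), a ratio of 1.66 (1.52 to 1.82). Counted within a library against Bckdhb or Dbt the difference was larger, and against Bckdha it was smaller. There were 5.66 Bckdk counts per Bckdhb count in the library labelled P2X1-KO (4.81 to 6.68) and 2.42 in the library labelled WT (2.16 to 2.72), a ratio of 2.33 between libraries (1.91 to 2.86). Against Dbt there were 4.81 in the library labelled P2X1-KO (4.13 to 5.61) and 2.06 in the library labelled WT (1.85 to 2.30), again a ratio of 2.33 (1.93 to 2.81). Against Bckdha there were 0.559 in the library labelled P2X1-KO (0.517 to 0.605) and 0.414 in the library labelled WT (0.385 to 0.445), a ratio of 1.35 (1.213 to 1.504). Transcript counts do not show the phosphorylation of the complex.

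Bckdha, the E1 alpha subunit gene that carries the sites phosphorylated by the kinase, was the most abundant member per kilobase, but its reads are the least certain. Its span is 25629946 to 25658981 on chromosome 7, minus strand, and 61.7% of its exon bases overlap those of B3gnt8, a glycosyltransferase gene on the other strand. The sources used here do not say whether counting used strand. Bckdha had 1771 counts in the library labelled P2X1-KO (199 CPM), and 2523 counts in the library labelled WT (162 CPM), a ratio of 1.23 (1.16 to 1.31) whose log2 difference became -0.019 after correction for length and GC content. B3gnt8 had 135 CPM in the library labelled P2X1-KO and 61.6 CPM in the library labelled WT, a ratio of 2.19 (2.01 to 2.38). There were 10.1 Bckdha counts per Bckdhb count in the library labelled P2X1-KO (8.66 to 11.9) and 5.85 in the library labelled WT (5.28 to 6.50), although the proteins form one E1 component.

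**Figure D3:**
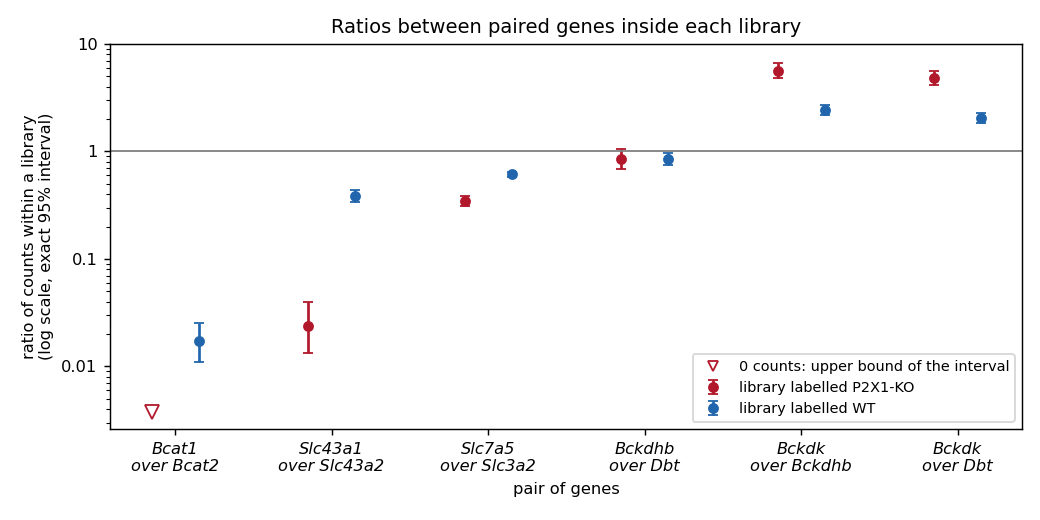
Ratio of the counts of 2 genes within each library (log axis, exact 95% intervals), library labelled P2X1-KO in red on the left of each pair and library labelled WT in blue; the open triangle is the upper bound where Bcat1 had 0 counts. The intervals of the libraries overlap only for Bckdhb over Dbt, whose ratio is 0.850 in the library labelled P2X1-KO and 0.852 in the library labelled WT; the ratios led by Bcat1, Slc43a1 and Slc7a5 are lower for the label P2X1-KO and both led by Bckdk are higher.

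Ordered per kilobase, the members kept Bckdha and Slc3a2 at the top and Slc43a1 and Bcat1 at the bottom in both libraries. In the library labelled P2X1-KO the levels after Slc3a2 were 30.2 CPM per kilobase for Bckdk and 28.2 for Bcat2, whose intervals met, then 12.4 for Slc7a5 and 10.9 for Bckdhb, which also met, then 7.06 for Slc43a2 and 6.93 for Dbt, which met as well. In the library labelled WT the order after Slc3a2 was Slc7a5 at 32.2, Bcat2 at 25.05, Bckdk at 18.1, Bckdhb at 15.3 and Dbt at 9.69, with no neighbouring intervals meeting. Slc7a5 thus stood above Bcat2 and Bckdk in the library labelled WT and below both in the library labelled P2X1-KO.

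The later steps of breakdown, which turn the ketoacid products into acetyl-CoA, succinyl-CoA and ketone bodies, mostly lay within 2-fold. Of 23 listed genes 23 were measured, 1 of them higher and 1 lower by 2-fold or more, and their median log2 difference was -0.12, against -0.06 for all features. Most features lay within 2-fold too, 9438 of 13382, with 15.5% higher and 14.0% lower. Mcee, the methylmalonyl-CoA epimerase gene, had 84.4 CPM in the library labelled P2X1-KO and 26.9 CPM in the library labelled WT, a ratio of 3.14 (2.78 to 3.55). Aldh6a1, the methylmalonate semialdehyde dehydrogenase gene of valine breakdown, had 10.1 CPM in the library labelled P2X1-KO and 27.2 CPM in the library labelled WT, 2.68-fold lower (2.13 to 3.41), with 18.6% of its exon bases opposite to Bbof1. The list also holds Dld and Ppm1k, which act at the dehydrogenase complex itself and not at a later step. Of these 2 genes, named for their role after their values were seen, Dld, the E3 subunit shared with other dehydrogenases, had 63.7 CPM in the library labelled P2X1-KO and 118 CPM in the library labelled WT, 1.86-fold lower (1.69 to 2.05), with a ratio of 0.475 with total counts, past 2-fold. The second, Ppm1k, the phosphatase that opposes BCKDK, had 4.84 CPM in the library labelled P2X1-KO and 3.27 CPM in the library labelled WT, and the interval of its ratio, 0.963 to 2.27, included 1.

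Other carriers of neutral amino acids and partners of 4F2hc differed in both directions. Of 14 listed genes, 10 were measured and 4, Slc7a10, Slc6a15, Slc6a17 and Slc6a19, had 0 counts in both libraries. Of the 10, 2 were higher and 2 lower by 2-fold or more, where 15.5% of all features were higher and 14.0% lower. The median log2 difference was -0.29. The lower ones were 2 genes of glutamine carriers. Slc38a1 had 95.7 CPM in the library labelled P2X1-KO and 213 CPM in the library labelled WT, 2.23-fold lower (2.07 to 2.40), and Slc1a5, encoding ASCT2, had 230 CPM in the library labelled P2X1-KO and 462 CPM in the library labelled WT, 2.01-fold lower (1.91 to 2.11), though the ratio was 0.527, within 2-fold, with upper-quartile scaling. After the length and GC correction the log2 differences of Slc38a1, -0.71, and Slc1a5, -0.95, were within 2-fold. Slc38a2, a further glutamine carrier gene of the list named after its values were seen, had 177 CPM in the library labelled P2X1-KO and 174 CPM in the library labelled WT, a ratio of 1.02 (0.958 to 1.09). Slc25a44, also named after its values were seen, had 26.0 CPM in the library labelled P2X1-KO and 48.7 CPM in the library labelled WT. It was 1.87-fold lower (1.62 to 2.18). With total counts its ratio was 0.472, past 2-fold, and 3 genes of the list were lower by 2-fold or more. The higher ones encode light chains that, like LAT1, bind 4F2hc. Slc7a7, the y+LAT1 gene, had 11.3 CPM in the library labelled P2X1-KO and 2.89 CPM in the library labelled WT, a ratio of 3.90 (2.72 to 5.68), with 7.0% of its exon bases opposite to Oxa1l. Slc7a11, the cystine carrier gene, had 37 counts in the library labelled P2X1-KO and 17 counts in the library labelled WT, a ratio of 3.82 (2.10 to 7.24).

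The leucine-sensing and Rag-mTORC1 genes, which report amino acid supply at the lysosome, also lay mostly within 2-fold. Of 25 listed genes 24 were measured, 1 of them higher and 2 lower by 2-fold or more, and their median log2 difference was -0.10. Of all 13382 features, 9438 lay within 2-fold, with 15.5% higher and 14.0% lower. Rragd, one of the Rag GTPase genes, had 0 counts in the library labelled P2X1-KO and 93 counts in the library labelled WT, 17.7-fold lower against the floor, with 14.1 as the nearest bound of the exact interval. Mios, a GATOR2 subunit gene, had 19.9 CPM in the library labelled P2X1-KO and 43.2 CPM in the library labelled WT, 2.17-fold lower (1.83 to 2.57). Lamtor4, a Ragulator subunit gene, had 232 CPM in the library labelled P2X1-KO and 106 CPM in the library labelled WT, a ratio of 2.19 (2.05 to 2.34), or 1.94 with total counts. After the length and GC correction the log2 differences of Mios, -0.79, and Lamtor4, 0.71, were within 2-fold. Sesn3, a sestrin gene named after its values were seen, was under the filter at 0 counts in the library labelled P2X1-KO and 21 counts in the library labelled WT.

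The amino acid response list, which holds Atf4, genes that ATF4 is known to act on and the gene of the sensor kinase GCN2, was spread in both directions. Of 16 listed genes 15 were measured, 4 of them higher and 3 lower by 2-fold or more, and their median log2 difference was -0.26. By that threshold 15.5% of all features were higher and 14.0% lower. Slc7a11, described above, was among the higher genes. Cebpb, a transcription factor gene of myeloid cells, had 368 CPM in the library labelled P2X1-KO and 121 CPM in the library labelled WT, a ratio of 3.04 (2.88 to 3.22), with 20.7% of its exon bases opposite to Tmem189. Ddit4, an inhibitor gene of mTORC1, had 108 CPM in the library labelled P2X1-KO and 48.9 CPM in the library labelled WT, a ratio of 2.22 (2.01 to 2.44), or 1.96 with total counts. After the length and GC correction its log2 difference was 0.82, within 2-fold. Vldlr, a lipoprotein receptor gene, had 1 count in the library labelled P2X1-KO and 55 counts in the library labelled WT, a ratio of 0.0319 (0.000794 to 0.185). Eif2ak4, which encodes GCN2, had 27.9 CPM in the library labelled P2X1-KO and 76.9 CPM in the library labelled WT, 2.75-fold lower (2.40 to 3.17), and Atf5 had 24.99 CPM in the library labelled P2X1-KO and 56.3 CPM in the library labelled WT, 2.25-fold lower (1.94 to 2.62). Atf4 and Asns are named after their values were seen. Atf4 had 391 CPM in the library labelled P2X1-KO and 467 CPM in the library labelled WT, a ratio of 0.836 (0.803 to 0.871). Asns had 35.35 CPM in the library labelled P2X1-KO and 66.9 CPM in the library labelled WT, 1.89-fold lower (1.67 to 2.15). With total counts the ratio of Asns was 0.467, past 2-fold. Of the 15 measured genes, 8 had a log2 difference below 0 and 7 above 0.

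**Figure D4:**
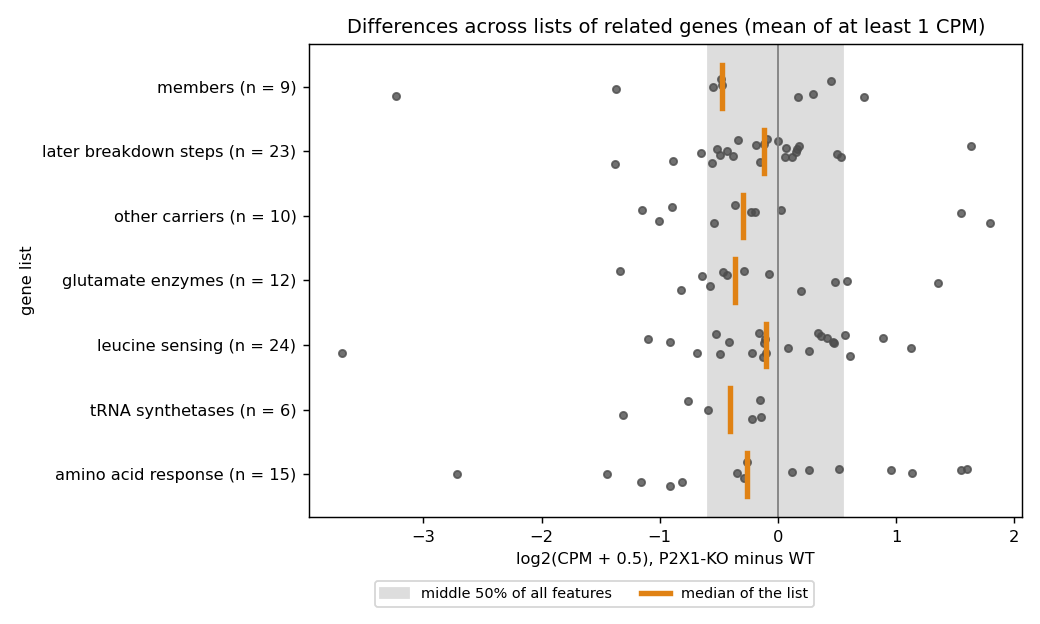
Difference in log2(CPM + 0.5), library labelled P2X1-KO minus library labelled WT, for each measured gene (points) of the member set and of 6 related lists; orange bars are list medians and the grey band is the middle 50% of all 13382 features, from -0.59 to 0.56. The medians run from -0.48 for the members to -0.10 for leucine sensing, all inside the band.

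Regulators linked to these genes in published work were listed with earlier results of these data known. Of 9 listed, 8 were measured, 1 of them higher and 4 lower by 2-fold or more, against 15.5% of all features higher and 14.0% lower, and no test of the list was made. Pbx3, a homeobox gene that work on this receptor in leukaemia ties to Bcat1, had 82 counts in the library labelled P2X1-KO (9.23 CPM), and 1835 counts in the library labelled WT (118 CPM), 12.7-fold lower (10.2 to 16.1). That link may come from the study behind these data, so it is not taken as separate evidence. MYC is known to act on Slc7a5 and Bcat1, and the family members stood in opposite order: Myc had 137 CPM in the library labelled P2X1-KO and 22.4 CPM in the library labelled WT, a ratio of 6.08 (5.40 to 6.87), whereas Mycn had 29.6 CPM in the library labelled P2X1-KO and 602 CPM in the library labelled WT, 20.3-fold lower (18.0 to 23.1). Mycn made up 17.8% of the counts of this pair in the library labelled P2X1-KO (15.9 to 19.9) and 96.4% in the library labelled WT (96.0 to 96.8). Msi2, encoding an RNA-binding protein reported to bind the BCAT1 transcript in human leukaemia cells, had 7.32 CPM in the library labelled P2X1-KO and 22.6 CPM in the library labelled WT, 3.09-fold lower (2.37 to 4.10). Ppargc1a, a coactivator gene of mitochondrial metabolism, had 1 count in the library labelled P2X1-KO and 37 counts in the library labelled WT, a ratio of 0.0474 (0.00117 to 0.281).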

How the data were processed

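The deposited table holds raw read counts for each gene symbol, as whole numbers, in 2 columns. HISAT2 2.0.4 and build mm10 are named in the submitters' processing notes, and the sources used here do not name the counting tool, annotation or strand setting. Calendar dates stood where symbols should be in 27 entries, which took 0.110% of counts in the library labelled P2X1-KO and 0.147% in the library labelled WT. They stayed in the totals.

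Counts were scaled with TMM in edgeR 4.0.16 under R 4.3.3, giving library sizes of 8882591 for P2X1-KO and 15591519 for WT. Ratios of CPM have Clopper-Pearson intervals given the sum of both counts (scipy 1.17.1), counts have Poisson intervals, and ratios within a library have binomial ones, compared by conditional odds ratios. Reads are not independent molecules, so these cover counting error only. A count of 0 was set to a floor of 3 counts per library. Log2 differences use a pseudocount of 0.5 CPM and understate low genes. The interval code was tested on simulated counts. Genes were placed with GENCODE M21, which gave exon length and GC content for 92.6% of the 13382 features with a mean of at least 1 CPM. The members, gene lists and the rule for named genes were chosen with earlier results of these data known. From each list the rule took up to 3 genes each way, at least 2-fold apart with a mean of at least 1 CPM, by the interval bound nearest to no change. Alternatives covered scaling, filter, pseudocount, threshold, and 20 bins each of length and GC content.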

Additional observations from a re-analysis of the deposited data

How the results depend on the processing

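With 1 library per group only counting error is known, and it is widest for Bcat1 and Slc43a1. The 2 members at least 2-fold lower stayed 2 under RLE, total-count and upper-quartile scaling, a mean of at least 5 CPM, the length and GC correction, 1.5-fold and the whole-interval rule, and became 3 of 10, with Bcat1, without a filter. The 0 members at least 2-fold higher became 1, Bckdk, at 1.5-fold. The median of the members ranged from -0.65 with total counts, where the median of all features was -0.23, to -0.35 after the length and GC correction, where it was 0. Total counts thus lowered the median feature by more than 0.1 on the log2 scale. Of 60 recalculated member differences, 50 moved by less than their counting interval, 8 by more without changing sign (Bcat1 from -4.14 to -0.87 with pseudocounts of 0.1 and 2 CPM among them), and 2 changed sign: Bcat2 to -0.0068 with total counts and Bckdha to -0.019 after the length and GC correction. The 26 counts of Bcat1 in the library labelled WT came to 14.8 at the other library's depth. With plain counts in place of counts per kilobase, the share of Bcat1 in the library labelled WT was 1.68% in place of 0.709%, and that of Slc43a1 was 2.33% in place of 4.015% in the library labelled P2X1-KO and 27.9% in place of 40.4% in the library labelled WT. No paired analysis was possible because each group has 1 library, and no library could be left out for the same reason.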

Other observations

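Other enzymes that handle glutamate and 2-oxoglutarate, the partners of both branched-chain aminotransferases, were measured for 12 of 14 listed genes, with Tat and Aadat at 0 in both libraries. Of the 12, 1 was higher and 1 lower by 2-fold or more for the label P2X1-KO, and the median log2 difference was -0.36. Among all features, 15.5% were higher and 14.0% lower by as much. The higher one was Gls2, which encodes a mitochondrial glutaminase. It had 23 counts in the library labelled P2X1-KO and 11 counts in the library labelled WT, a ratio of 3.67 (1.72 to 8.34), with 2.79% of its exon bases opposite to Spryd4.

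The enzymes that load leucine, isoleucine and valine onto tRNA were all 6 measured, with a median log2 difference of -0.41 against -0.06 for all features. Of these 6, 1 was lower by 2-fold or more, where 14.0% of all features were. After the length and GC correction the median was -0.20 against 0 for all features, and Lars and Lars2 lay above 0. Only Iars2, the mitochondrial isoleucine enzyme gene, was at least 2-fold lower, with 66.9 CPM in the library labelled P2X1-KO and 166 CPM in the library labelled WT, 2.49-fold (2.27 to 2.72), though its log2 difference of -0.90 after that correction was within 2-fold. Of its exon bases, 22.9% lie opposite to Rab3gap2.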
